A study of Mus musculus with 12 samples.

Results

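The genes of the cytosolic ribosomal proteins were followed in mouse liver over the first day after surgical removal of 2/3 of the organ (partial hepatectomy). Members were the protein-coding probes whose transcript accession belongs to a gene with an Rpl or Rps symbol and a number, or to Rplp0, Rplp1, Rplp2 or Rpsa. Kinases of ribosomal protein S6, whose symbols start in the same way, were left out. The rule matched 96 probes of 86 genes, and 92 probes of 82 genes were called well above background on at least 3 of 12 arrays and analysed, out of 31172 probes and 17000 named genes kept on the array. Of the 92 probes, 51 stood for 44 genes of the large subunit, 33 for 30 genes of the small subunit, and 8 for 8 paralogs, retrogenes or interactors caught by the symbol rule. Genes that were not kept included Rpsa, a small-subunit protein that also serves as a laminin receptor and was well above background on 1 array, and Rpl37 and Rpl39l, a paralog of Rpl39, on 0 arrays each. Their levels could not be followed.

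All mice were wild-type male C57BL/6 animals, 6 weeks old. The groups were 0, 1.5, 12 and 24 h after surgery, with 3 mice and 3 arrays each. No sham-operated group was analysed here, and the labels give neither the hour of the day at which tissue was taken nor whether animals shared a cage or litter, so effects of the remnant, of anaesthesia and wound, and of the hour cannot be told apart. Total liver RNA was labelled with Cy3 and hybridised to a 1-colour Agilent array. Because whole tissue was measured, fewer cells of a type and less RNA per cell cannot be told apart.

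A cytosolic ribosome is built from a small subunit, which reads the messenger, and a large subunit, which joins amino acids, each a scaffold of ribosomal RNA covered by proteins that are mostly present once per particle. The mRNAs of these proteins begin with a stretch of pyrimidines at their 5′ end (5′ terminal oligopyrimidine, or TOP, mRNAs), through which the kinase mTORC1 and the RNA-binding protein LARP1 set how strongly they are translated. Regenerating liver makes new ribosomes before its cells divide, and a change in translation of TOP mRNAs need not show in the mRNA level, which is what these arrays measured.

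Start sites of members on which the results turn are printed here because mRNAs of this gene family are known for the TOP stretch. Each line gives 40 bases before and 20 bases from the annotated start on the gene's strand (RefSeq, GRCm38.p6). Capitals mark the longest run of C and T letters within the window from 10 bases before to 20 bases from the start. A run was cut at the edge of that window, as at the downstream start of Rpl22, where the letter before the capitals is also a c.
Rps6 (chr4:86857348-86857407, minus strand): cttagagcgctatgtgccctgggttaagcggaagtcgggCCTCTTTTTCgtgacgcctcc
Rpl13a (chr7:45128726-45128785, minus strand): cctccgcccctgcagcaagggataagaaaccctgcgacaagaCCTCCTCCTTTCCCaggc
Rpl12 (chr2:32961672-32961731, plus strand): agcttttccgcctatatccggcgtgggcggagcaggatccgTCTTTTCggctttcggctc
Rplp0 (chr5:115559427-115559486, plus strand): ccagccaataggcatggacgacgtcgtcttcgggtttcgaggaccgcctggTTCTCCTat
Rpl22, downstream start (chr4:152325686-152325745, plus strand): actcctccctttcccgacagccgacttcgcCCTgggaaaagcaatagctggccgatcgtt
Rpl22, upstream start (chr4:152324396-152324455, plus strand): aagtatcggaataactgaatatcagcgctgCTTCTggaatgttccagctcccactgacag
Rpl22l1 (chr3:28805468-28805527, plus strand): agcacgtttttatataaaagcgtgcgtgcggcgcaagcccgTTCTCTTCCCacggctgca
Rpl7l1 (chr17:46782637-46782696, minus strand): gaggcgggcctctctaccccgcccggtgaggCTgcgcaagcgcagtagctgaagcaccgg
Rps3 (chr7:99483690-99483749, minus strand): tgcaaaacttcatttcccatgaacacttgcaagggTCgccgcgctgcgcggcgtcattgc
Rps23rg1 (chr8:3567958-3568017, plus strand): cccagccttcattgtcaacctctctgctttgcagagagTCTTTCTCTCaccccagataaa
The run was 10 letters long at Rps6, 14 at Rpl13a, 7 at Rpl12, 7 at Rplp0, 10 at Rpl22l1, 10 at Rps23rg1, 3 and 5 at the downstream and upstream starts of Rpl22, and 2 at those of Rpl7l1 and Rps3. Of the 82 member genes 63 had a promoter in the table, with 75 start sites, and 54.7% of these sites carried a run of at least 6 letters made only of C and T on the gene's strand in that window. Among all 32851 start sites in the table the share was 28.7%. A run is a match of letters near an annotated start and need not begin at its first base. At Rplp0, for example, the run begins 11 bases after the first base. The shares are therefore not counts of TOP stretches. A start that is annotated a few bases away from the one used in liver would also shift a run.

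Values below are the log2 of the deposited processed signal minus the log2 of the same array's 75th percentile, called the normalized log2 signal; a difference of 1 is 2-fold. Levels of different probes were not set against each other as amounts of mRNA, since a probe's brightness depends on its sequence. Of the members called below, those of Rplp0, Rps23rg1, Rps3 and Rpl22 had dim probes. Their 0 h means were -1.95, -1.40, -0.38 and 1.47, while the member medians of the 12 arrays were 5.44 to 6.42. Whether such dim probes follow the mRNA of their gene was not tested. Differences are log2 fold changes ± standard error (SE) from limma with 1 mean per time point over all 12 arrays, and a member was called where the Benjamini-Hochberg adjusted p over all 31172 probes was under 0.05. Because the 4 groups share 1 estimate of the spread, an array that stands apart at 24 h also widens the errors at 1.5 and 12 h.

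Slides and 1 array set limits that touch most results here. Slides were inferred from the scan identifiers in the file headers: arrays with the same identifier are called a slide. Whether each such set was 1 physical slide was not checked. By this rule the 3 arrays of 0 h and replicate 1 of 1.5 h formed slide 1. Replicates 2 and 3 of 1.5 h with replicates 1 and 2 of 12 h formed slide 2. Replicate 3 of 12 h with replicates 1 and 3 of 24 h formed slide 3, and replicate 2 of 24 h alone formed slide 4. No slide holds both 0 h and 12 h, or both 0 h and 24 h. The 24 h replicate 2 array was read at a 75th percentile of 6210 intensity units, against 443 to 599 on the other 11. Liver identity was clear on every array, with 9 of 9 measured probes for hepatocyte markers well above background on all 12. Marker lists of several other cell types differed between the times. For neutrophils the summed normalized level over 9 probes (Ltf was not kept) was 1.72 to 2.34 at 0 h, 8.26 to 11.4 at 1.5 h, 31.6 to 40.6 at 12 h and 27.1 to 42.3 at 24 h, and 7 of those 9 were well above background on all arrays. At 12 h the summed levels also lay outside the 0 h range for hepatocytes (9 probes, 1572 to 2668 against 1353 to 1383) and lymphocytes (10 probes, 52.3 to 74.8 against 28.7 to 39.4). The same held for bile duct (6 probes, 53.2 to 87.6 against 31.2 to 48.5) and erythroid cells (6 probes, 28.8 to 38.7 against 46.3 to 52.3), and at 24 h for stellate cells (11 probes, 28.6 to 65.4 against 18.5 to 23.2). Such a sum weighs bright probes most. At 12 h limma called 0 lymphocyte probes higher and 2 lower, beside 15.3% of all probes. For hepatocytes it called 1 higher and 1 lower, for bile duct 1 and 0, and for erythroid cells 0 and 0. At 1.5 h, with arrays on slides 1 and 2, the sums ran from 1326 to 2206 for hepatocytes and from 34.8 to 56.7 for lymphocytes. The median 12 h difference of the hepatocyte, lymphocyte, bile duct and erythroid probes was 0.23, 0.32, 0.30 and -0.35. With slide as a block, so that arrays are compared within slides, it was -0.04, 0.09, 0.56 and -0.33. Cd79a of the lymphocyte list and Cftr of the bile duct list were not kept. The part of these cells in the member values was not tested.

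The middle of the ribosomal protein group lay close to its starting level at every time. The median difference of the 92 probes against 0 h was -0.04 (1.5 h), 0.03 (12 h) and 0.06 (24 h), beside 0.07, 0.24 and -0.06 for all coding probes and 0.16, 0.41 and -0.15 for all probes. From 12 to 24 h the members' median was 0.08, that of coding probes -0.14 and that of all probes -0.48. The sign of the member median at 12 h depends on the scaling: it was -0.12 after quantile normalization, -0.12 in the authors' deposited values and -0.22 after normexp background correction. Within 0.5 log2 of 0 h lay 77 of 92 probes at 1.5 h, 63 at 12 h and 69 at 24 h, while 3, 14 and 10 differed by more than 1 log2. The median SE of a member was 0.27 at 1.5 and 12 h and 0.28 at 24 h.

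**Figure D1:**
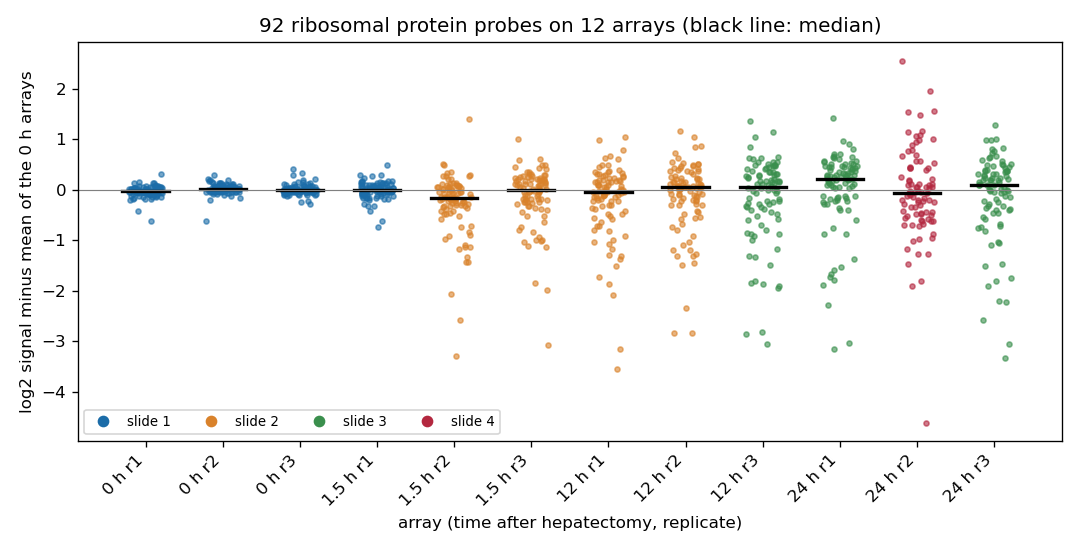
Each point is 1 of the 92 ribosomal protein probes on 1 array, plotted as its normalized log2 signal minus the mean of its 3 arrays at 0 h; colours mark the slide and black lines the median. The medians stay near 0 on all 12 arrays, the 4 arrays of slide 1 form tight columns, and a tail of low probes appears on slides 2 and 3, also on the 1.5 h arrays placed there.

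Calls against 0 h were few. At 1.5 h none of the 92 probes was called by limma, with 1 at an unadjusted p under 0.05 (Rpl12), and 0.0225% of all probes were called. At 12 h 4 members (4.35%) were called, 1 higher and 3 lower, against 15.3% of all probes (6.93% higher and 8.39% lower). At 24 h 3 members (3.26%) were called, 1 higher and 2 lower, against 5.45% of all probes (2.83% higher and 2.62% lower). Between 12 and 24 h 2 members (2.17%) were called, 1 in each direction, against 12.8% of all probes (6.31% higher and 6.47% lower). An F test over the 3 times after surgery called 5 members, against 16.2% of all probes; these were Rps23rg1, Rplp0, Rpl7l1, Rpl22 and Rpl12. Without the 24 h replicate 2 array the counts were 0, 29, 20 and 6 in the same order, beside 0.568%, 49.0%, 17.0% and 15.8% of all probes. With slide as a block, which compares arrays within slides and links the time points through them, the counts were 0, 1, 0 and 3, beside 0.077%, 4.17%, 0.266% and 8.86% of all probes. Where that fit called none, 2 members at 1.5 h and 3 at 24 h had an unadjusted limma p under 0.05. In that fit the difference of 24 from 12 h comes from slide 3 alone, with 1 array at 12 h and 2 at 24 h, and the link from 0 h to later times passes through 1.5 h replicate 1 alone; each lone array is assumed to vary like the others. Fitted by themselves, the arrays of slide 3 called no member and 0.0834% of all probes. After normexp background correction Rpl12 was the 1 member called at 12 h.

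By group separation the members were close to all probes at each time against 0 h. The 3 arrays of a group lay wholly above or below the 3 at 0 h for 22 members (23.9%) at 1.5 h, beside 25.7% of all probes. At 12 h this held for 58 members (63.0%), 28 higher and 30 lower, beside 61.3% of all probes. At 24 h it held for 23 members (25%) beside 27.0%, and between 12 and 24 h for 19 members (20.7%) beside 41.5%.

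The lowest difference at 12 h was that of Rps23rg1, a mouse gene that arose from a retroposed copy of the small-subunit gene Rps23. Its normalized log2 signal was -1.41, -1.30 and -1.49 at 0 h, -1.51, -1.57 and -1.21 at 1.5 h, -4.95, -4.24 and -4.22 at 12 h, and -3.29, -6.02 and -3.63 at 24 h. The 6 arrays of 12 and 24 h all lay below the 6 arrays of 0 and 1.5 h. Rps23rg1 fell by 3.07 ± 0.58 at 12 h (8.39-fold, limma adjusted p = 0.00577), and by 2.91 ± 0.58 at 24 h (7.53-fold, adjusted p = 0.0174). The probe was well above background on 2 of the 3 arrays at 12 h. It was the 1 member that passed at 12 h with slide as a block, at -3.31 ± 0.40 (adjusted p = 0.00923), while its 24 h difference in that fit was -2.56 ± 0.52 (adjusted p = 0.117). On slide 2 alone, where both time points are present, its 12 h arrays lay 3.20 ± 0.30 below its 1.5 h arrays (a difference of -3.20, adjusted p = 0.0208). After normexp background correction, which raises dim signals by a fixed offset, the 12 h difference was -0.60 (adjusted p = 0.501) and the 24 h difference -2.02 (adjusted p = 0.287). Leaving out any 1 of the 0 h arrays also ended the 24 h call, at adjusted p of 0.054 to 0.0749. The parent gene Rps23, a protein of the decoding centre, had another course, described with the slides below.

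**Figure D2:**
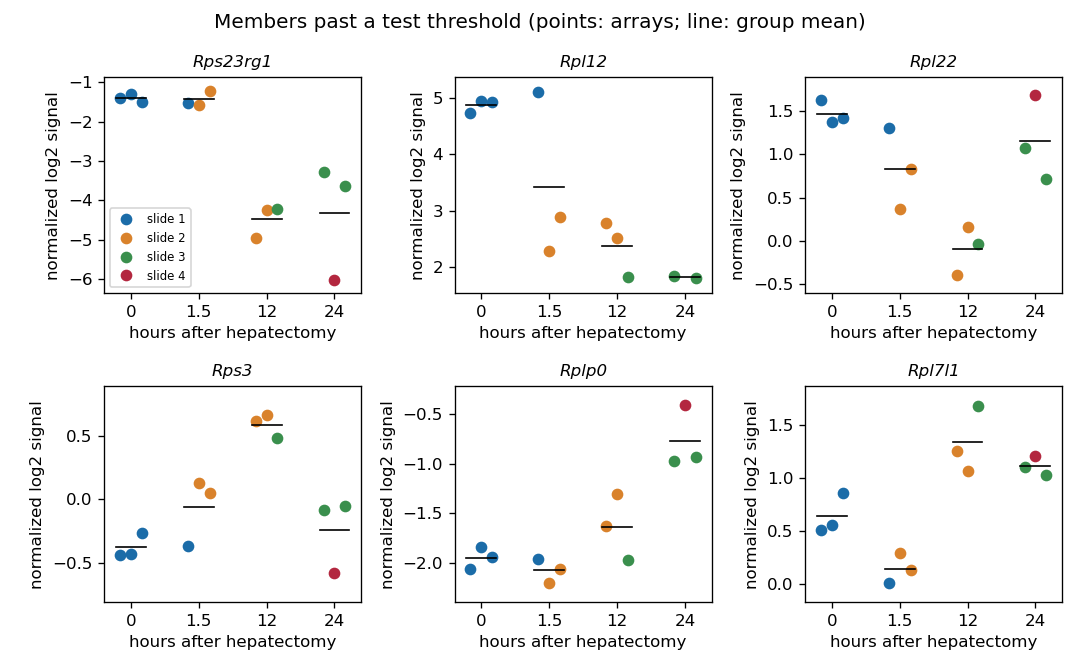
Normalized log2 signal (vertical axes) of 6 members against hours after hepatectomy, 1 point per array coloured by slide, with a line at the group mean. Rps23rg1 is low on all 6 arrays of 12 and 24 h whichever slide they came from, whereas the points of Rpl12 follow the slide, with 1.5 h replicate 1 beside the 0 h arrays; the 24 h replicate 2 value of Rpl12 is missing.

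The stalk of the large subunit, where elongation factors dock, is formed by Rplp0, which anchors pairs of Rplp1 and Rplp2, with Rpl12 at its base. Rplp0 stood at -2.06, -1.84 and -1.94 at 0 h, -1.96, -2.20 and -2.06 at 1.5 h, -1.63, -1.31 and -1.97 at 12 h, and -0.97, -0.41 and -0.94 at 24 h. All 3 arrays at 24 h lay above all 9 earlier ones. Rplp0, read by 1 dim probe, rose by 1.18 ± 0.26 at 24 h against 0 h (2.26-fold, adjusted p = 0.0264). Its rise from 12 to 24 h was called with slide as a block, at 1.02 ± 0.22 (adjusted p = 0.0302), on 1 array at 12 h; fitted on slide 3 by itself the same difference had an adjusted p of 0.167. In the block fit the 24 h difference against 0 h was 1.67 ± 0.34 (adjusted p = 0.124). After normexp the 24 h difference was 0.70 (adjusted p = 0.562), and leaving out any 1 of the 0 h arrays gave 1.12 to 1.23 with adjusted p of 0.081 to 0.122.

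Neither Rplp1 nor Rplp2 passed the test at 24 h. Rplp1 differed by -0.20 ± 0.30 and Rplp2 by 0.01 ± 0.31 at 24 h against 0 h, and Rplp2 had the highest adjusted F-test p of the members, 0.993. On the 24 h replicate 2 array Rplp1 read 6.56 and Rplp2 6.81, below every other array of either gene. On the other 24 h arrays Rplp1 read 7.69 and 7.46, against 7.33 to 7.50 at 0 h, and Rplp2 read 7.94 and 7.59, above its 0 h range of 7.40 to 7.46. Without replicate 2 the 24 h differences were 0.14 ± 0.19 for Rplp1 (adjusted p = 0.636) and 0.33 ± 0.23 for Rplp2 (adjusted p = 0.343).

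Rpl12 read 4.73, 4.94 and 4.93 at 0 h, 5.10, 2.28 and 2.88 at 1.5 h, 2.79, 2.52 and 1.82 at 12 h, and 1.84 and 1.81 at 24 h, where replicate 2 was dropped as an outlier spot. Its 12 h difference was -2.49 ± 0.61 (adjusted p = 0.0232) and its 24 h difference, over 2 arrays, -3.04 ± 0.68 (adjusted p = 0.0327). Within 1.5 h, however, replicate 1 on slide 1 lay 2.52 log2 above the other replicates on slide 2, which is as large as the called difference. The sign turned with slide as a block, to 0.31 ± 0.34 at 12 h (adjusted p = 0.671) and 0.31 ± 0.44 at 24 h (adjusted p = 0.858). On slide 2 alone its 12 and 1.5 h arrays differed by 0.07 ± 0.26. Leaving out any 1 array of 0 h or of 12 h also ended the 12 h call, with values of -2.70 to -2.21 and adjusted p of 0.0535 to 0.0763. The 24 h call was lost without any 1 of the 0 h arrays, without 12 h replicate 1 or 2 and without 24 h replicate 1 or 3, at adjusted p of 0.0522 to 0.109.

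The exit tunnel, through which the new chain leaves the large subunit, is lined or ringed by 9 listed members with 12 probes. Of these probes 1 fell at 12 h and 1 rose from 12 to 24 h, beside 15.3% and 12.8% of all probes called. Without 24 h replicate 2, 4 were lower at 12 h, 1 was lower at 24 h and 1 was higher at 24 than at 12 h, beside 49.0%, 17.0% and 15.8%. With all 12 arrays both calls came from Rpl22, a protein on the solvent side that also binds RNA outside the ribosome. Rpl22 read 1.62, 1.37 and 1.41 at 0 h, 1.30, 0.37 and 0.83 at 1.5 h, -0.40, 0.16 and -0.03 at 12 h, and 1.08, 1.68 and 0.71 at 24 h. The 12 h arrays were the lowest of all and did not overlap any other group. Its arrays were also separated by slide, with slide 1 at 1.30 to 1.62, above slides 2 and 3 at -0.40 to 1.08. Within 1.5 h, replicate 1 on slide 1 lay 0.70 above the mean of the replicates on slide 2. Rpl22 fell by 1.55 ± 0.32 at 12 h (2.94-fold, adjusted p = 0.00953), and from 12 to 24 h it rose by 1.24 ± 0.32 (2.37-fold, adjusted p = 0.0371). In the fit with slide as a block these values were -0.89 ± 0.39 (adjusted p = 0.251) and 0.92 ± 0.32 (adjusted p = 0.109), and on slide 2 the 12 h arrays differed from the 1.5 h arrays by -0.72 ± 0.28 (adjusted p = 0.186). The call from 12 to 24 h was also lost without any 1 of the 0 h or 12 h arrays, without 1.5 h replicate 3 and without 24 h replicate 1, at adjusted p between 0.0517 and 0.146.

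Its paralog Rpl22l1 was not called. It read 5.69 to 5.75 at 0 h, 5.87, 6.02 and 6.20 at 1.5 h, 6.38, 6.44 and 6.18 at 12 h, and 6.22, 5.49 and 6.11 at 24 h. The 12 h difference of 0.62 ± 0.25 did not pass (adjusted p = 0.116) and passed without the 24 h replicate 2 array, with the same estimate and an adjusted p of 0.0119. A slide block gave 0.46 ± 0.23 (adjusted p = 0.311).

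Rpl13a, a large-subunit protein that also takes part in silencing of inflammatory mRNAs, was measured by 2 probes that gave the same picture; it is named after its values were seen. The first probe read 2.35 to 2.50 at 0 h, 2.25 to 2.39 at 1.5 h, 1.70 to 2.36 at 12 h, and 3.22, 2.26 and 3.38 at 24 h. The 24 h arrays of slide 3 lay above every other array and replicate 2, on slide 4, did not. From 12 to 24 h the 2 probes differed by 0.89 ± 0.31 and 0.95 ± 0.33 (adjusted p = 0.0734 and 0.0707). With slide as a block, where 12 h is replicate 3 alone and 24 h replicate 2 adds nothing, both rose by 1.16 (adjusted p = 0.0421 and 0.0222); the same differences fitted on slide 3 by itself had adjusted p of 0.142 and 0.139. Without 24 h replicate 2 they rose by 1.23 and 1.36 (adjusted p = 0.00661 and 0.00278).

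The 5S ribonucleoprotein, in which Rpl5 and Rpl11 carry the 5S RNA into the large subunit and which can hold the p53 regulator Mdm2, had no member called. Rpl5 differed by 0.26 ± 0.26 at 12 h and 0.11 ± 0.26 at 24 h, and Rpl11 by -0.29 ± 0.23 and -0.37 ± 0.23. Rpl5 reached 6.60 and 6.70 on the 24 h arrays of slide 3, above its 0 h range of 6.19 to 6.30, but 5.82 on replicate 2. Rpl11 lay at 6.75 to 6.80 at 0 h and at 6.10 to 6.74 on all arrays after surgery.

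The small-subunit head was covered by 12 listed members with 12 probes. With all 12 arrays Rps3 alone was called, higher at 12 h and lower from 12 to 24 h, beside 15.3% and 12.8% of all probes called. Without 24 h replicate 2, 1 probe was higher and 1 lower at 12 h, beside 49.0% of all probes. In that fit 1 was lower at 24 h and 1 lower at 24 than at 12 h, beside 17.0% and 15.8%. Rps3 forms part of the channel through which the messenger enters and also acts in DNA repair. It read -0.44, -0.43 and -0.27 at 0 h, -0.37, 0.13 and 0.05 at 1.5 h, 0.62, 0.66 and 0.48 at 12 h, and -0.09, -0.58 and -0.06 at 24 h. The 12 h arrays lay above all 9 others. By slide the arrays were separated too, with slide 1 at -0.44 to -0.27, below slides 2 and 3 at -0.09 to 0.66. Within 1.5 h, replicate 1 on slide 1 differed by -0.46 from the mean of the replicates on slide 2. Rps3 rose by 0.96 ± 0.24 at 12 h (1.95-fold, adjusted p = 0.0234), and from 12 to 24 h it fell by 0.83 ± 0.24 (1.77-fold, adjusted p = 0.0494). Under the slide block the values were 0.56 ± 0.23 (adjusted p = 0.223) and -0.55 ± 0.19 (adjusted p = 0.106), and on slide 2 the 12 h arrays differed from the 1.5 h arrays by 0.55 ± 0.14 (adjusted p = 0.0864). The 12 h call was lost without any 1 of the 0 h arrays or without 12 h replicate 1 or 2, at adjusted p between 0.0617 and 0.0898. The call from 12 to 24 h was lost on leaving out any 1 of the arrays of 0 h or 12 h, 1.5 h replicate 2 or 3, or 24 h replicate 1, at adjusted p between 0.0545 and 0.156.

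Rps6, the substrate of S6 kinase whose phosphorylation is a common readout of mTORC1, read 2.14 to 2.19 at 0 h, 1.74 to 2.12 at 1.5 h, 1.89 to 1.95 at 12 h, and 2.24, 3.13 and 2.16 at 24 h. The high value was replicate 2, the array on slide 4. Its difference was -0.24 ± 0.28 at 12 h (adjusted p = 0.542) and 0.33 ± 0.28 at 24 h (adjusted p = 0.523), and 0.03 at 24 h without that array.

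Among the paralogs and interactors, Rpl7l1, a nucleolar relative of Rpl7 that acts in assembly of the large subunit, passed the F test (adjusted p = 0.0226) without passing any single contrast against 0 h. It read 0.51, 0.55 and 0.86 at 0 h, 0.02, 0.29 and 0.13 at 1.5 h, 1.26, 1.07 and 1.69 at 12 h, and 1.1, 1.21 and 1.03 at 24 h. The 1.5 h arrays were the lowest and the 12 and 24 h arrays the highest, with no overlap between these and the 0 h arrays. Against 0 h it differed by -0.50 ± 0.24 at 1.5 h and 0.70 ± 0.24 at 12 h (adjusted p = 0.774 and 0.0748). On slide 2 it rose by 0.95 ± 0.16 from 1.5 to 12 h (adjusted p = 0.0413), 1 of 2 members called there, Rps23rg1 being the other, beside 9.46% of all probes; this within-slide contrast was chosen after seeing the data. Rps27l, a paralog of Rps27 and a known p53 target, lay at 5.67 to 6.09 over all 12 arrays with an adjusted F-test p of 0.991. Rpl3l, the muscle paralog of Rpl3, differed by 0.54 ± 0.26 at 12 h (adjusted p = 0.182), and Rps19bp1, an interactor of Rps19 that also regulates Sirt1, by -0.22 ± 0.21 (adjusted p = 0.459).

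Genes mutated in Diamond-Blackfan anaemia, a human disorder of red-cell formation caused by loss of 1 copy of a ribosomal protein gene, were listed with 20 members and 24 probes. No probe of the list was called in any contrast. The median difference was 0.09 at 12 h and 0.05 at 24 h. Without the 24 h replicate 2 array 6 of the 24 probes were called at 12 h, 1 higher (Rps7) and 5 lower, of which 3 were probes of Rpl35a and the others Rpl15 and Rps26, beside 49.0% of all probes. At 24 h in that fit 4 were called, all lower, beside 17.0%. Under the slide block no probe of this list was called at any time, and these genes differed at 12 h by 0.04 (Rps7), -0.27 to -0.17 (Rpl35a), -0.37 (Rpl15) and -0.22 (Rps26).

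Rps26 shows what separates those fits. This protein, which sits where the messenger leaves the small subunit, read 5.29, 5.28 and 5.20 at 0 h, and 4.84, 1.96 and 2.17 at 1.5 h. At 12 h it read 2.10, 2.41 and 2.40, and at 24 h 2.11, 6.41 and 1.93. The 4 arrays of slide 1 were high, 1.5 h replicate 1 among them, the 7 arrays of slides 2 and 3 were low whatever their time point, and 24 h replicate 2 on slide 4 was the highest of all. Its 12 h difference was -2.95 ± 1.07 (adjusted p = 0.0864) in the fit of all 12 arrays, -2.95 (adjusted p = 0.00394) without replicate 2 of 24 h, and -0.22 ± 0.27 (adjusted p = 0.705) with slide as a block. Between the slides at 1.5 h alone it differed by 2.78 log2.

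**Figure D3:**
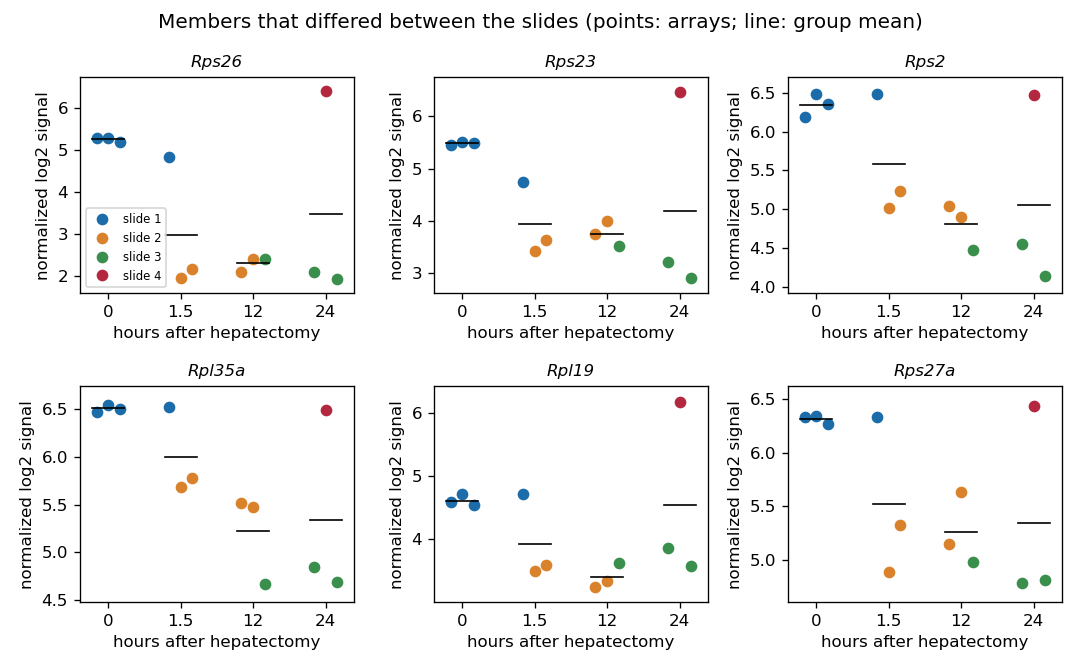
Normalized log2 signal (vertical axes) of Rps26, Rps23, Rps2, Rpl35a, Rpl19 and Rps27a against hours after hepatectomy, 1 point per array coloured by slide, with a line at the group mean. In each panel the 4 arrays of slide 1, which include 1.5 h replicate 1, lie above the 7 arrays of slides 2 and 3, and the array of slide 4 lies at or above the level of slide 1.

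The same order was seen in other members. Rps23 read 5.44 to 5.52 at 0 h, 4.75 on the 1.5 h array of slide 1, 2.90 to 3.99 on slides 2 and 3, and 6.47 on slide 4. Rps2, a protein of the messenger entry channel, read 6.20 to 6.49 on slide 1, 4.13 to 5.24 on slides 2 and 3, and 6.47 on slide 4. The 3 probes of Rpl35a lay between 6.33 and 6.56 on slide 1 and between 4.58 and 5.77 on slides 2 and 3. Both probes of Rpl19, which bridges the subunits, and both of Rps27a, made as a fusion with ubiquitin and named after its values were seen, did likewise, with slide 1 above slides 2 and 3 by 1.08 to 1.26 log2 on average. In all, the 4 slide 1 arrays lay wholly above the 7 arrays of slides 2 and 3 for 21 members (22.8%) of 17 genes, beside 6.93% of coding probes, and wholly below for 7 members (7.61%), beside 10.2%. Rps7 was the largest of the latter, at 0.69 to 0.88 on slide 1, 1.38 to 2.15 on slides 2 and 3 and 0.25 on slide 4.

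At 1.5 h, where time was the same on both slides, 10 members (10.9%) of 9 genes differed by more than 1 log2 between slides 1 and 2, beside 14.2% of coding probes. Of these 10, 9 were higher on slide 1. Among coding probes 643 were higher on slide 1 and 2185 on slide 2. Whether the slide, the animals on it or a further step that went with it carries these differences was not tested, and at 12 and 24 h slide and time against 0 h cannot be told apart except through the 1.5 h arrays. For the genes with several probes the probes moved alike: over 7 genes and 17 probes, the largest gap between probes of a gene was 0.19 log2 at 12 h and 0.23 in any contrast.

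**Figure D4:**
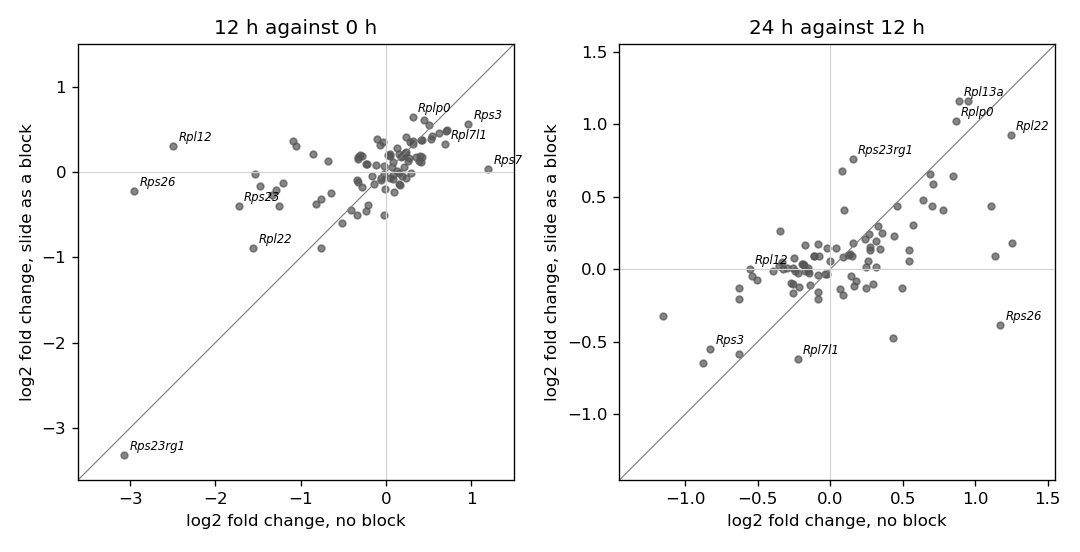
Log2 fold change of each of the 92 member probes without a block (horizontal) and with slide as a block (vertical), in the 12 h contrast (against 0 h) and the contrast of 24 with 12 h, with the line of equal values. At 12 h Rps23rg1 lies near the line, Rpl12, Rps26 and Rps23 lie far to its left near 0 on the vertical axis, and most members cluster around 0 in both fits.

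In the slide-block fit the members drew together. Within 0.5 log2 of 0 h lay 90 of 92 probes at 1.5 h, 82 at 12 h and 78 at 24 h, and 0, 1 and 2 differed by more than 1 log2; the 1 at 12 h was Rps23rg1 and the 2 at 24 h were Rps23rg1 and Rplp0. The members' medians were -0.01, 0.09 and 0.14, beside 0.03, 0.07 and 0.03 for coding probes. Median SEs in that fit were 0.20 (1.5 h), 0.27 (12 h) and 0.34 (24 h).

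Bright members spanned a narrower range on 24 h replicate 2 than on any other array. On the other 11 arrays 43 member probes of 40 genes averaged above 6, and on each of these arrays the SD over the 43 probes was 0.50 to 0.58. On 24 h replicate 2 they spanned 5.49 to 7.07 with an SD of 0.31. The median pixel signal of 23 member spots there was at or above 99% of the saturation value in the file header, and none was marked as saturated; on the other arrays the brightest member reached 21.7% to 25.6% of it. For these 23 probes the value on that array is bounded by the scanner's range. The median SD of a member over the 3 replicates was 0.07 at 0 h, 0.16 at 1.5 h, 0.18 at 12 h and 0.44 at 24 h, and 0.11 at 24 h without that array.

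Without that array 20 members were called at 24 h, 7 higher and 13 lower, beside 10.3% and 6.69% of all probes. The higher ones included Rpl7 at 1.36 and Rplp0 at 0.99, and the lower ones Rps26 at -3.24, Rps23 at -2.43, Rps23rg1 at -2.06 and Rps2 at -2.0. Of the 29 called at 12 h, 9 were higher, among them Rps7 at 1.20, Rps3 at 0.96 and Rpl6 at 0.71, and 20 were lower, beside 32.2% and 16.8% of all probes. These calls rest on arrays of slide 1 against arrays of slides 2 and 3, and with slide as a block 1 of 92 members was called at 12 h and 0 at 24 h.

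Other parts of the pathway were read from fixed lists. Fau and Rack1, ribosomal parts whose symbols fall outside the rule, had no call; Rack1, a scaffold on the small-subunit head, differed by 0.86 ± 0.29 from 12 to 24 h (adjusted p = 0.0662). The other TOP mRNAs, mostly translation factors (20 genes, 23 probes), had no call either with all 12 arrays, with medians of 0.11 at 12 h and 0.24 at 24 h. The highest of this list at 24 h was Nap1l1, a histone chaperone, at 1.27 ± 0.36 (adjusted p = 0.0696). Without 24 h replicate 2, 2 probes of the list were higher at 12 h, and 3 were higher and 1 lower at 24 h, beside 49.0% and 17.0% of all probes.

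The S6 kinase family (10 genes, 10 probes) had 1 member higher and 2 lower at 12 h, beside 15.3% of all probes, and 4 higher and 3 lower without 24 h replicate 2, beside 49.0%. Rps6ka3, which encodes the ERK-activated kinase RSK2, rose by 2.27 ± 0.35 (adjusted p = 0.00213), and by 2.12 ± 0.44 with slide as a block (adjusted p = 0.0427). From 12 to 24 h it fell by 1.66 ± 0.35 (adjusted p = 0.0208). Rps6ka1, which encodes RSK1, fell by 1.83 ± 0.29 at 12 h (adjusted p = 0.00238), with -1.73 ± 0.44 and an adjusted p of 0.0706 with slide as a block. Of the genes that control TOP mRNAs and mTORC1 (16 genes, 18 probes), 2 probes were higher and 3 lower at 12 h, beside 15.3% of all probes, and 3 were higher at 24 than at 12 h, beside 12.8%. Without 24 h replicate 2 the 12 h counts were 3 and 5, beside 49.0%. Sesn2 and Ddit4, both inhibitors of mTORC1, rose at 12 h by 2.38 ± 0.48 and 2.13 ± 0.56 (adjusted p = 0.00968 and 0.0274). A probe of Tsc2, another inhibitor, fell by 1.99 ± 0.56 (adjusted p = 0.0356). Under the slide block none of these 3 passed (adjusted p = 0.363, 0.18 and 0.685). Larp1, the TOP-binding protein, rose from 12 to 24 h by 1.09 ± 0.29 (adjusted p = 0.0401), with 0.59 ± 0.28 and an adjusted p of 0.228 with slide as a block.

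Chaperones and import partners of ribosomal proteins (15 genes, 16 probes) had 1 probe higher and 2 lower at 12 h, beside 15.3% of all probes, and 6 higher and 3 lower without 24 h replicate 2, beside 49.0%. Ltv1, needed for late assembly of the small subunit, rose by 1.26 ± 0.33 (adjusted p = 0.0285; 1.28 ± 0.30 and 0.0555 with slide as a block). Aamp, another gene of this list, fell by 1.71 ± 0.46 (adjusted p = 0.0293), and with slide as a block it differed by -0.36 ± 0.32 (adjusted p = 0.572). Factors that rescue stalled ribosomes (7 genes, 9 probes) had 2 probes higher at 12 h and 2 at 24 h, beside 15.3% and 5.45% of all probes. Without 24 h replicate 2 they were 4 higher and 1 lower at 12 h and 3 and 1 at 24 h, beside 49.0% and 17.0%. Hbs1l, which splits stalled ribosomes with Pelo, rose by 1.97 ± 0.28 at 12 h (adjusted p = 0.00131), and by 1.86 ± 0.36 with slide as a block (adjusted p = 0.0334).

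Mitochondrial ribosomal proteins, which build the separate ribosome of that organelle, numbered 82 probes of 78 genes. At 12 h 4 probes were higher and 8 lower, at 24 h 2 and 1, and from 12 to 24 h 9 were higher and none lower, beside 15.3%, 5.45% and 12.8% of all probes. Without 24 h replicate 2 the counts were 7 higher and 24 lower at 12 h, 6 and 3 at 24 h, and 13 and 1 from 12 to 24 h, beside 49.0%, 17.0% and 15.8%. Their medians were -0.17, 0.19 and 0.34, against 0.03, 0.06 and 0.08 for the cytosolic members in the same contrasts; the difference between the families was not tested. With slide as a block the mitochondrial medians were -0.20, -0.04 and 0.13, so the sign at 24 h turned. In that fit, with its 1 array at 12 h, 5 of the 82 were higher at 24 than at 12 h, beside 8.86% of all probes, among them Mrpl34 at 1.64 ± 0.30 (adjusted p = 0.0198) and Mrpl55 at 1.33 ± 0.24 (adjusted p = 0.0201).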

How the data were processed

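RNA of 12 livers was read on 1-colour arrays. The deposited processed intensity of each spot, linear and corrected for background within the array, came from Feature Extraction 10.5.1.1 (Agilent), per the file headers. The authors also deposited log2 values for 20271 probes (86 member probes), whose normalization no header or label states; column medians were 8.91 to 8.94 and each column followed the log2 of that array's processed intensity at a correlation of at least 0.993, and they served as an alternative. The submitters' processing notes name the same software. The labels do not say that mice of different time points were different animals, which is assumed; p-values measure the spread between these arrays.

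Control and outlier spots were dropped (4 member values, all on 24 h replicate 2: Rpl12, Rpl28, Rpl32l and Rpl3l), spots of a probe were averaged, and log2 intensity was taken minus the array's 75th percentile. Probes were named through RefSeq accessions. limma 3.58.1 in R 4.3.3 fitted 1 mean per time point to all 12 arrays, two-sided, with Benjamini-Hochberg adjustment. The steps were checked on simulated data with independent noise. Those data held no slide effect and no array that stands apart, so the check does not cover either. The number of arrays limits the precision.

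Members and lists were chosen with earlier results of these data known. Named members were, per contrast, up to 8 called in each direction and the 3 highest and lowest of those not called, the lists' members, the extremes of the F test, Rps6, and members that failed the filter; of other lists up to 4 per contrast. Tables and figures used Python 3.11.15, pandas 2.3.3 and matplotlib 3.10.9.
Results for some items are not reported here.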

Additional observations from a re-analysis of the deposited data

How the results depend on the processing

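Counts of members called are given in the order 12 h against 0 h, 24 h against 0 h, 24 h against 12 h, and any time point by the F test; with all 12 arrays and no block they were 4, 3, 2 and 5. At 1.5 h against 0 h the count was 0 in each alternative run except array weights. With normexp background correction the counts were 1, 0, 0 and 0 (beside 3.41%, 0.821%, 0.731% and 2.84% of all probes), with quantile normalization 10, 4, 5 and 9 (20%, 7.61%, 17.1% and 24%), with the authors' values 8, 3, 7 and 9 (26.9%, 9.92%, 28.5% and 35.9%), and with centring on the median of coding probes 5 from 12 to 24 h (15.5%). Without a filter on dim probes, or with 1 probe per gene, 1 member was called from 12 to 24 h (6.94% and 12.1%), and with probes well above background on all 12 arrays 8 were called at 12 h and 6 from 12 to 24 h (21.2% and 22.7%). With an intensity trend and robust moderation 8 were called at 12 h (15.8%). Array weights gave 24 h replicate 2 a weight of 0.04 and called 22 members at 1.5 h, then 30, 34, 10 and 41, beside 38%, 58.1%, 28.1%, 33.6% and 73.9% of all probes. Slide as a fixed block gave 1, 0 and 3 calls (4.17%, 0.266% and 8.86%), and as a random block 1, 2, 6 and 9 (8.49%, 0.924%, 13% and 19.3%); within slide 3 no member was called from 12 to 24 h (4 at an unadjusted p under 0.05, limma). Fitting only the groups compared gave 27, 1 and 0 (49.7%, 0.382% and 0%). Leaving out 1 array at a time gave 2 to 29 calls at 12 h, 0 to 20 at 24 h, 0 to 10 from 12 to 24 h, and 1 to 29 at any time point; both 29s and the 20 came without 24 h replicate 2 (49%, 44% and 17%) and the 10 without 24 h replicate 3 (34.1%). Added after seeing the data, without the array on slide 4 a random slide block gave 1 at 24 h, 4 from 12 to 24 h and 10 at any time point (1.9%, 11.3% and 21.6%), and quantile normalization 29, 24, 10 and 30 (38.4%, 16.4%, 16.7% and 39.1%). The replicate numbers did not pair the samples (correlations of same-numbered deviations from -0.419 to 0.411); with the replicate block 0 were called from 12 to 24 h and 3 at any time point (4.1% and 10.1%). Rpl12 reversed with slide as a fixed block, to 0.31 at 12 h and 0.31 at 24 h. Under the alternatives run, the 9 called differences otherwise kept their sign, and 77 of their values missed the threshold. The cause of each change was not tested.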
